A study of Mus musculus with 24 samples.

Results

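Mouse retinal organoids grown in static culture were compared at day 18 between cultures whose optic cups had been cut free (SSCd, 3 libraries) and cultures left whole (SSCi, 2 libraries). These are 5 of the 24 libraries of the study, taken by their labels. All 24 came from mouse embryonic stem cells, either a clone from Nrl-GFP transgenic mice or the wild-type clone R1. The labels do not say which clone gave which library. Cells were grown on mouse embryonic fibroblast feeders, which were removed before aggregation, received Matrigel at day 1 and changed to maturation medium at day 7. In SSCd the optic cups were dissected with tungsten needles at day 10. SSCi organoids kept the tissue around the cups. Amino acids, B27 without vitamin A and 2% serum were added from day 18 in SSCd and from day 26 in SSCi. Whether the day 18 libraries were taken before that addition is not given, so dissection and medium cannot be told apart on that point. The comparison sets dissected cups against cups with the tissue around them. A difference may lie in the cups or in that tissue, and these libraries cannot tell them apart.

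The optic cup gives rise to the neural retina, its peripheral rim (the ciliary margin) and the pigment epithelium. Retinal progenitors leave the cell cycle in an order in which ganglion cells, cones, horizontal cells and amacrine cells come early and rods late. Retinoic acid, Wnt, BMP, Hedgehog and FGF signals pattern the cup along its dorsal, ventral and peripheral axes. Aggregates of stem cells can also hold mesenchyme, which secretes collagens and fibronectin, and other non-retinal cells.

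Polyadenylated RNA was read in stranded libraries of 13816144 to 21604446 estimated counts among the 5. Values are CPM, the usual depth-scaled count of a gene relative to the total of its library, with totals scaled by the trimmed mean of M values. Retinal progenitor genes were abundant in both groups: Pax6, the eye field homeobox gene, had 547, 744 and 699 CPM in SSCd, against 498 and 758 CPM in SSCi. The photoreceptor gene Crx had 455, 537 and 615 CPM in SSCd, against 265 and 396 CPM in SSCi. Cryaa and Foxe3 (lens), Cdh5 (endothelium), Myod1 (muscle), Krt14 (epidermis) and Hbb-bs (blood) had no count in any of the 5. Some other markers of such tissues had few counts. SSCi replicate 1 had 46 for the epidermal gene Trp63, 3 for Krt5, 32 for the leukocyte gene Ptprc and 20 for the muscle actin Acta1. The endothelial gene Pecam1 had 6 to 13 counts a library. Not all were low: Kdr, also an endothelial marker, had 1980 to 3827 counts a library, and the surface epithelium marker Epcam 62 to 138. The photoreceptor calcium sensor Rcvrn had 4 to 10 counts a library. Mitochondrial transcripts took 9.57% of the counts in SSCd replicate 1, and 2.46% to 3.08% in the other 4 libraries.

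The SSCi libraries differed from each other at more genes than SSCi replicate 2 differed from any SSCd library. Among genes with a log2 CPM of at least 3 in either library of a pair, SSCi replicates 1 and 2 differed by over 2-fold at 1490 of 11738 genes (12.7%) and by over 8-fold at 379. Replicate 1 was the higher one at 362 of those 379. SSCi replicate 2 lay close to the dissected cups: it differed by over 2-fold from SSCd replicate 2 at 228 genes and from SSCd replicate 3 at 301 genes. SSCd replicates 2 and 3 differed at 122 genes. SSCd replicate 1 stood apart from these 3 libraries, with 832 genes against SSCd replicate 2, 1312 against SSCd replicate 3 and 1074 against SSCi replicate 2. SSCi replicate 1 differed at 1779 to 2090 genes from the SSCd libraries.

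With edgeR's quasi-likelihood test and Benjamini-Hochberg adjustment at 0.05, 59 of 16792 genes tested were higher in SSCd (0.351%) and 590 were lower (3.51%), 3.86% in all. The count depended on single libraries. Without SSCi replicate 1, edgeR called 0 of 17356 genes (0.00%), with 529 at an unadjusted p under 0.05 (3.05%), of which 270 had higher values in SSCd (1.56%) and 259 lower values (1.49%). DESeq2 then called 14 genes and limma-voom 2. Without SSCd replicate 3, edgeR also called 0 genes, with 1778 at an unadjusted p under 0.05 and a smallest adjusted p of 0.0519. DESeq2 called 671 genes there and limma-voom 1. Without SSCd replicate 1 there were 42 higher and 338 lower, and without SSCd replicate 2 there were 20 and 72. Against SSCi replicate 1 alone, 152 genes were higher (0.867% of 17534) and 1187 lower (6.77%). No gene was called with the same sign against both SSCi libraries and against each alone (0.00%). limma-voom found 1 such gene, lower in SSCd. A lone SSCi library was assumed to vary like the other groups.

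The higher and the lower calls differed in how the SSCi libraries lay. Of the 59 higher genes, 58 had both SSCi libraries below all 3 SSCd libraries, and all 59 kept a positive fold change against SSCi replicate 2 alone, 58 of them at an unadjusted p under 0.05. Over all genes tested, 10.6% had their groups apart in this direction. Of the 590 lower genes, 324 had both SSCi libraries above all SSCd libraries, against 11.1% of the genes tested. In 223 SSCi replicate 2 lay inside the SSCd range and in 43 below it. Against SSCi replicate 2 alone, 443 of the 590 stayed negative, 92 of them at an unadjusted p under 0.05. The median log2 fold change of the lower genes was -2.82 against both libraries, -3.61 against replicate 1 and -0.41 against replicate 2. That of the higher genes was 1.27, 1.47 and 1.15. All these fractions among called genes follow in part from the call itself. For the gene lists below, the shares over all genes tested were 0.351% called higher and 3.51% called lower. The groups lay apart at 10.6% of genes in the higher direction and 11.1% in the lower.

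**Figure D1:**
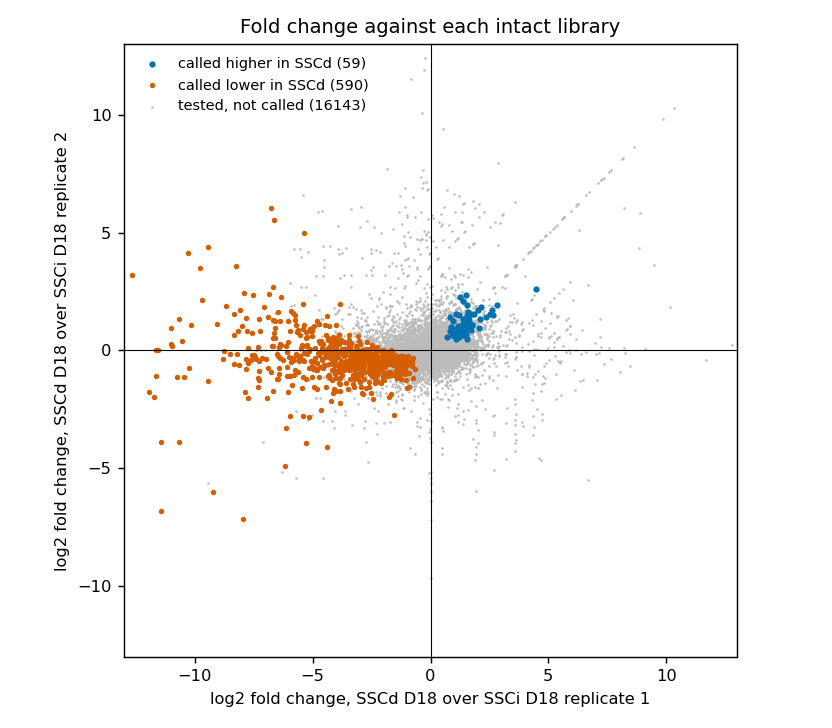
Each point is one tested gene, with the log2 fold change of SSCd D18 over SSCi D18 replicate 1 on the horizontal axis and over SSCi D18 replicate 2 on the vertical axis. The 59 genes called higher (blue) lie above 0 on both axes, while the 590 genes called lower (orange) spread along the horizontal axis around 0 on the vertical one.

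Several cone genes were higher in the dissected cups. Of 15 cone genes, 4 passed the test as higher and none as lower (DESeq2 6 and 0). In 13 both SSCi libraries lay below every SSCd library, against 10.6% of the genes tested. The list's median log2 fold change was 1.12, with 1.61 against SSCi replicate 1 and 0.79 against replicate 2, where that of all genes tested was 0.02, 0.11 and 0.03. In bulk samples fewer cells of a type and less RNA per cell cannot be told apart, for these and all later genes. Gnat2, the alpha subunit of cone transducin (chromosome 3, 108092789 to 108101432, GRCm38), had 62.5, 54.7 and 51.1 CPM in SSCd, against 9.66 and 17.0 CPM in SSCi. The groups did not overlap, and the log2 fold change was 2.08 (SE 0.53, adjusted p = 0.0295). Gnb3, its beta subunit partner, had 370, 352 and 415 CPM in SSCd, against 130 and 190 CPM in SSCi (log2 fold change 1.24, SE 0.25, adjusted p = 0.00847).

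Cngb3, a subunit of the cone cyclic nucleotide-gated channel, had 94.3, 60.6 and 51.8 CPM in SSCd, against 20.1 and 23.9 CPM in SSCi (log2 fold change 1.65, adjusted p = 0.0441). Ccdc136, the fourth called member, had 275, 284 and 342 CPM in SSCd, against 154 and 197 CPM in SSCi (0.78, adjusted p = 0.0247). In all 4 genes the lowest SSCd library stood above the highest SSCi library. The S-cone opsin Opn1sw had 19.2, 12.5 and 14.7 CPM in SSCd, against 4.55 and 3.84 CPM in SSCi, and did not pass (1.88, adjusted p = 0.0843). The cone gamma subunit Gngt2 had 519, 236 and 284 CPM in SSCd, against 76.3 and 117 CPM in SSCi (1.84, adjusted p = 0.0797). The cone phosphodiesterase Pde6c ran from 75.4 to 85.6 CPM in SSCd, against 27 and 45.6 CPM in SSCi, without passing. M-cone opsin Opn1mw had at most 0.294 CPM in a library, and Guca1a, a guanylate cyclase activator, stood at 0.279 to 0.395 CPM in SSCd, against 0.657 and 0.678 CPM in SSCi.

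The promoter windows of 3 genes called higher are shown because they hold, just before the start, the letters TAATCC that Crx and Otx factors bind. The windows are from RefSeq (GRCm38.p6), read 5′ to 3′ along the gene, and end at the base before the RefSeq start. That start is not the start in the gene annotation used for coordinates here, and the window of Gnat2 lies inside the gene as given above. Capitals mark the motif, here on the opposite strand, at 19 bases before the start in Gnat2, 28 in Rpgrip1 and 37 in Lrit2.
Gnat2, chr3:108092956-108093065, plus strand: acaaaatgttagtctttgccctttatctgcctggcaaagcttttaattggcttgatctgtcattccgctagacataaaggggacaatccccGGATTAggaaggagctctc
Rpgrip1, chr14:52110793-52110902, plus strand: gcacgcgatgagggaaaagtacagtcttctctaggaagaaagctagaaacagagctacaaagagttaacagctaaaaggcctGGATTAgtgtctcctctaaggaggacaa
Lrit2, chr14:37067919-37068028, plus strand: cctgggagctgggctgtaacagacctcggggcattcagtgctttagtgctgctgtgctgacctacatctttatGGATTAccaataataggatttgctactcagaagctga
On either strand, from 250 bases before the start to 50 after it and in the first window listed for a gene, TAATCC stood in 9 of the 42 higher genes with a window (21.4%). It stood in 20 of 433 lower genes (4.62%), 5.88% of the genes tested and 7.16% of all RefSeq windows. A match of letters describes the window and shows no binding.

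No photoreceptor or rod gene of the list was called. None of 30 photoreceptor and rod genes passed edgeR's test, while 12 had an unadjusted p under 0.05, all with higher values in SSCd. DESeq2 called 3 of them higher and limma-voom 0. At an unadjusted p under 0.05 the whole comparison held 2049 genes. The list's median log2 fold change was 0.80, with 1.03 against SSCi replicate 1 and 0.81 against replicate 2. In 17 members both SSCi libraries lay below all SSCd libraries, against 10.6% of the genes tested. Otx2, which starts the photoreceptor programme, had 760, 612 and 773 CPM in SSCd, against 365 and 548 CPM in SSCi (adjusted p = 0.253). Prdm1, which holds photoreceptor fate, had 255, 259 and 299 CPM in SSCd, against 118 and 179 CPM in SSCi (adjusted p = 0.0848). The rod factor Nrl had 50.7, 19.9 and 29.4 CPM in SSCd, against 21.7 and 22.3 CPM in SSCi, so its groups overlapped. The rod factor Nr2e3 likewise had 16.4, 7.29 and 8.93 CPM in SSCd, against 11.0 and 3.56 CPM in SSCi.

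Photoreceptor cilium and signalling genes were among the calls, named here after their values were seen. Pcdh15, a protocadherin of photoreceptors and hair cells, had 25.1, 12.8 and 14.6 CPM in SSCd, against 4.45 and 5.37 CPM in SSCi (log2 fold change 1.83, SE 0.36, adjusted p = 0.00811). It was lower in each SSCi library than in any of the 22 other libraries of the study. Rpgrip1, a connecting cilium protein, had 264, 167 and 315 CPM in SSCd, against 86.6 and 103 CPM in SSCi (1.39, adjusted p = 0.0355). Rgs9, the GTPase accelerator that ends the light response, had 34.6, 27.4 and 38.7 CPM in SSCd, against 8.39 and 17.3 CPM in SSCi (1.39, adjusted p = 0.0294). The kinase Mak, which controls the length of the photoreceptor cilium, differed less, with 102, 76.7 and 104 CPM in SSCd, against 55.5 and 52.6 CPM in SSCi (0.80, adjusted p = 0.0386). Lrit2, a leucine-rich repeat protein, had 9.49 to 11.1 CPM in SSCd, against 4.08 and 4.07 CPM in SSCi (1.31, adjusted p = 0.00811), and Rd3l had 10.3 to 24.1 CPM in SSCd, against 5.72 and 4.24 CPM in SSCi (1.69, adjusted p = 0.0486). Both SSCi libraries fell below all 22 others of the study at 43 of the 59 higher genes, against 2.58% of the genes tested. Of those 22, 19 are of other days or of rotating culture. That share follows in part from the call itself, since 58 of the 59 had both SSCi libraries below all SSCd libraries.

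**Figure D2:**
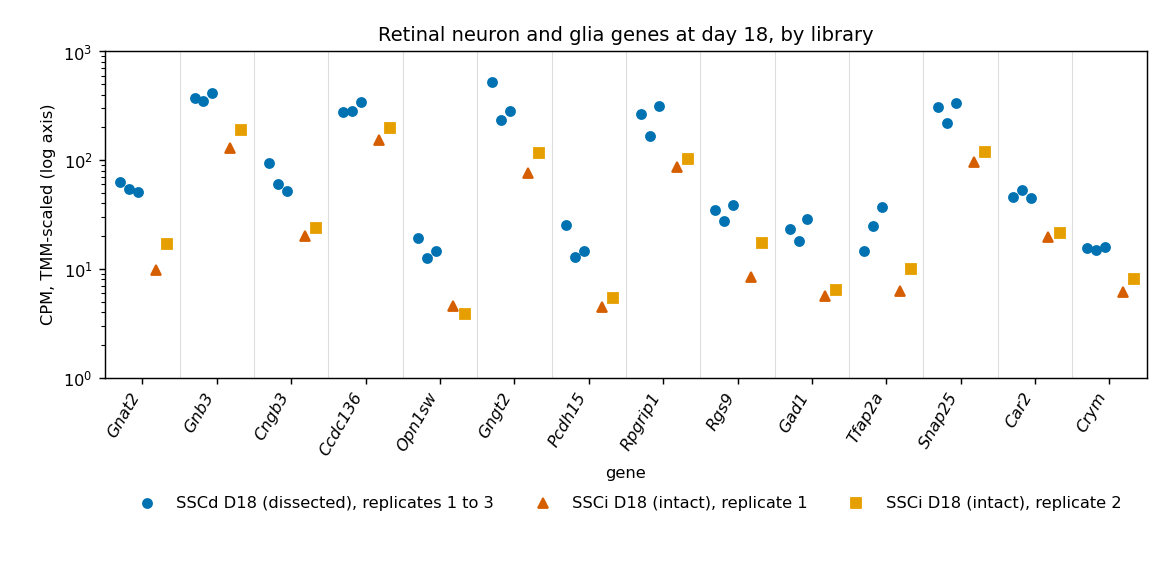
CPM on a log axis for 14 retinal genes in each day 18 library, with the 3 SSCd libraries (blue circles) left of SSCi replicate 1 (triangle) and replicate 2 (square). The genes were chosen after their values were seen, and list members whose groups overlapped, such as Nrl, Nr2e3 and Ptf1a, are not drawn. In every gene drawn the lowest circle lies above both SSCi marks, which follows in part from this choice. All were called higher except Opn1sw and Gngt2, which did not pass the test.

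Inner retinal genes rose in small numbers. Of 16 amacrine cell genes 2 were higher and none lower, with a median log2 fold change of 0.73. Gad1, which makes the transmitter GABA, had 23.5, 18.0 and 28.9 CPM in SSCd, against 5.58 and 6.44 CPM in SSCi (log2 fold change 1.96, SE 0.37, adjusted p = 0.00734). Tfap2a, an amacrine and horizontal cell factor, had 14.6, 24.6 and 36.7 CPM in SSCd, against 6.19 and 9.94 CPM in SSCi (1.65, adjusted p = 0.0353). Both genes had their groups apart, with the SSCi libraries near each other. Amacrine fate factor Ptf1a had 15.9, 18.5 and 18.6 CPM in SSCd, against 13.3 and 17.0 CPM in SSCi, an overlap. Of 20 ganglion cell genes only Nefh, a neurofilament chain, was called, at 4.12, 2.37 and 3.70 CPM in SSCd, against 1.78 and 1.41 CPM in SSCi (1.07, adjusted p = 0.048). The ganglion cell list had a median log2 fold change of -0.02. Its factor Pou4f2 had 8.60, 27.7 and 17.7 CPM in SSCd, against 30.6 and 42.6 CPM in SSCi (adjusted p = 0.608). With edgeR 0 of the 9 horizontal and 0 of the 14 bipolar cell genes passed, with 2 and 5 at an unadjusted p under 0.05. DESeq2 called 1 and 2 of these higher, and limma-voom 0.

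Synaptic and glial genes added a few calls. Of 23 presynaptic genes 1 was higher: Snap25, a vesicle fusion protein, had 311, 218 and 335 CPM in SSCd, against 96.9 and 118 CPM in SSCi (log2 fold change 1.42, SE 0.26, adjusted p = 0.00734). The presynaptic list had a median log2 fold change of 0.46 and the 26 transmitter receptor genes one of 0.42. The only receptor gene called was Gria3, lower in SSCd (log2 fold change -2.46, adjusted p = 0.0159). Its log2 fold change was -3.26 against SSCi replicate 1 alone and -0.04 against replicate 2 alone. Of 13 Mueller glia genes 2 were higher and 1 lower. In that list 6 had a positive and 7 a negative log2 fold change, with a median of -0.08. Among them Car2, carbonic anhydrase, had 46.3, 53.4 and 44.4 CPM in SSCd, against 19.5 and 21.2 CPM in SSCi (1.24, adjusted p = 0.00734). Crym, a thyroid hormone binding crystallin, had 15.7, 14.9 and 15.9 CPM in SSCd, against 6.14 and 8.02 CPM in SSCi (1.13, adjusted p = 0.0152). In both the 3 SSCd libraries lay within a narrow band above the SSCi pair. The intermediate filament Vim went the other way, at 299, 331 and 284 CPM in SSCd, against 1148 and 367 CPM in SSCi (-1.31, adjusted p = 0.0159).

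Transporter genes outside the lists were called in both directions, and those named were chosen after their values were seen. Slc12a4 and Slc41a3 were lower in SSCd, but the fold change of Slc12a4 turned positive without SSCi replicate 1. The GABA transporter Slc6a11 had 15.8, 26.5 and 37.6 CPM in SSCd, against 9.33 and 9.38 CPM in SSCi (log2 fold change 1.51, adjusted p = 0.0344). The glutamate transporter Slc1a7 had 21.3, 15.0 and 17.5 CPM in SSCd, against 6.24 and 5.82 CPM in SSCi (1.57, adjusted p = 0.0256), and Slc1a1 had 6.47 to 8.72 CPM in SSCd, against 2.95 and 1.69 CPM in SSCi (1.64, adjusted p = 0.00741). Slc1a1 was among the genes DESeq2 called against SSCi replicate 2 alone, an alternative chosen after seeing the data. Those were 12 higher (0.0691% of 17356) and 2 lower (0.0115%). Adcy2, Car2, Ppfia2, Slc1a1, Snap25, Unc80 and Zcchc12 were among the 12, as were Rpl38-ps2, Gm12918, Gm14303 and Rps12l1, each with no count in some of the 5 libraries, and Efhd1 was among the lower genes.

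Matrix and mesenchyme genes made the steepest differences, and these came from SSCi replicate 1. Of 24 mesenchyme genes, 17 were lower in SSCd and none higher. Their summed level was 448, 493 and 478 CPM in SSCd, against 23802 CPM in SSCi replicate 1 and 599 CPM in SSCi replicate 2. In the 19 libraries of the other groups the sum ran from 334 to 1035 CPM. The list's median log2 fold change was -4.80 against both SSCi libraries, -5.74 against replicate 1 and -0.06 against replicate 2. None of the list's 6 defining markers (Col1a1, Col1a2, Col3a1, Postn, Lum, Dcn) was at 0 in any of the 5 libraries.

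Thbs1, thrombospondin, had 5.88, 2.09 and 1.53 CPM in SSCd, against 6757 CPM in SSCi replicate 1 and 2.60 CPM in replicate 2. Its log2 fold change was -10.07 (SE 2.00, adjusted p = 0.00987) and was 0.27 against replicate 2 alone. Col1a2, a chain of type I collagen (chromosome 6, 4504814 to 4541544), had 8.02, 3.45 and 3.70 CPM in SSCd, against 1920 and 5.54 CPM in SSCi (log2 fold change -7.58, adjusted p = 0.00847). Postn, periostin, had 6.47, 2.94 and 0.698 CPM in SSCd, against 1034 and 3.73 CPM in SSCi (-7.27, adjusted p = 0.01). In each of the 3, SSCi replicate 2 lay inside the SSCd range. Col5a2, Col3a1, Col1a1 and Acta2, the smooth muscle actin, showed the same, with 1605, 2038, 975 and 599 CPM in SSCi replicate 1. Their SSCi replicate 2 values were 3.56, 3.33, 5.31 and 1.81 CPM. The other 19 libraries reached at most 152 CPM for Thbs1, 76.6 CPM for Col1a2 and 29.5 CPM for Postn.

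Regulators, receptors and enzymes of mesenchyme and matrix were also highest in SSCi replicate 1. Prrx1, a limb and head mesenchyme homeobox gene, had 2.28, 0.791 and 0.558 CPM in SSCd, against 270 and 1.13 CPM in SSCi (log2 fold change -6.82, adjusted p = 0.00747). Tbx15 had 0.0565 to 0.419 CPM in SSCd, against 41.1 and 0.339 CPM in SSCi (-6.34, adjusted p = 0.0136). Tgfbr2, a TGF-beta receptor, had 1.99, 1.92 and 1.26 CPM in SSCd, against 158 and 2.03 CPM in SSCi (-5.54, adjusted p = 0.00734). Of 19 matrix enzymes and crosslinkers 11 were lower. In 11 members both SSCi libraries lay above all SSCd libraries, against 11.1% of the genes tested. The list's median log2 fold change was -2.45 against both SSCi libraries and -0.57 against replicate 2 alone. Among the called members was Lox, which crosslinks collagen, at 0.628 to 1.69 CPM in SSCd, against 1257 and 1.64 CPM in SSCi (-9.31, adjusted p = 0.00734). The inhibitor Timp2 had 28.5 to 40.4 CPM in SSCd, against 1198 and 31.5 CPM in SSCi (-4.23, adjusted p = 0.00734). Of 19 cartilage and bone genes, 14 of them tested, 3 were lower: Spp1 (osteopontin) had 0.221 to 0.977 CPM in SSCd, against 144 and 0.904 CPM in SSCi, and Col11a1 and Hapln1 were the others. Acan and Matn1, aggrecan and matrilin, reached 53 and 2 counts in SSCi replicate 1. SSCi replicate 1 was the highest of all 24 libraries at 548 of the 590 lower genes, against 12.5% of the genes tested. That share follows in part from the call itself, since replicate 1 lay above all SSCd libraries at all 590.

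Some matrix genes also separated SSCi replicate 2 from the cups. Of 17 basement membrane genes 6 were lower, with a median log2 fold change of -1.43 against both libraries and -0.49 against replicate 2. Col18a1, a collagen of basement membranes, had 22.9, 40.4 and 41.3 CPM in SSCd, against 72.4 and 106 CPM in SSCi, the higher value in replicate 2 (log2 fold change -1.36, SE 0.33, adjusted p = 0.0225). Lamb1, a laminin chain, had 8.13 to 11.8 CPM in SSCd, against 133 and 19.3 CPM in SSCi (-3.01, adjusted p = 0.00734). Fn1, fibronectin, had 73.1, 152 and 129 CPM in SSCd, against 3799 and 158 CPM in SSCi (-4.07, adjusted p = 0.0119). Its replicate 2 value exceeded the highest SSCd library by little. Sparc, a matrix glycoprotein, had 147, 131 and 114 CPM in SSCd, against 2258 and 198 CPM in SSCi (-3.23, adjusted p = 0.00734).

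**Figure D3:**
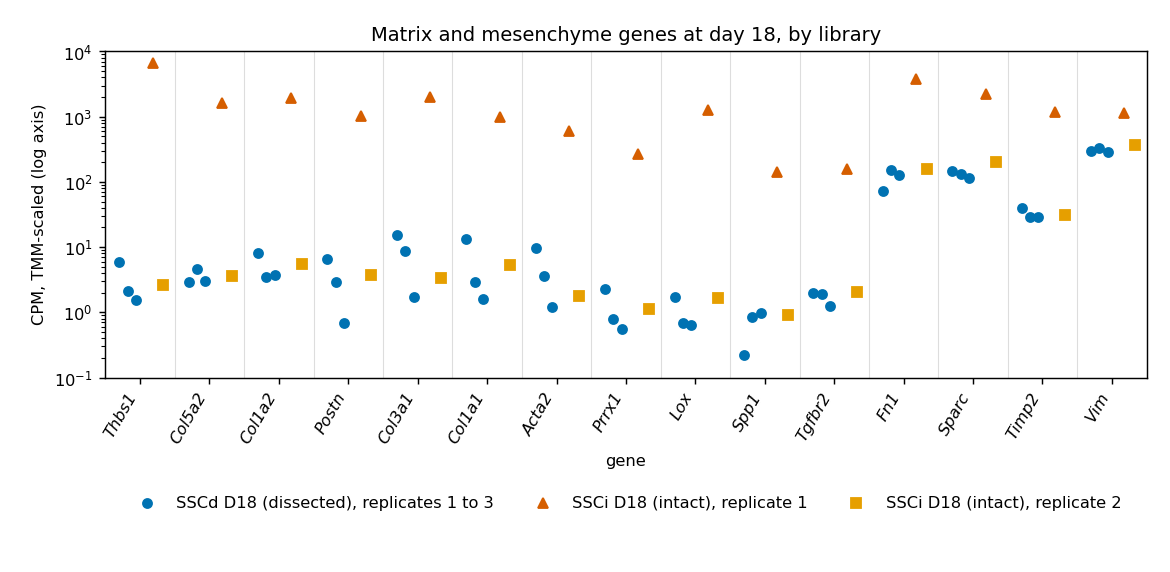
CPM on a log axis for 15 matrix and mesenchyme genes called lower in SSCd, in each day 18 library. SSCi replicate 1 (triangle) lies above every other library in each gene, up to 6757 CPM for Thbs1, while SSCi replicate 2 (square) lies among or just above the 3 SSCd libraries (circles).

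Ccn1, named after its values were seen, and Ccn2, both secreted matrix proteins and known targets of the Yap1 coactivator, were lower against both SSCi libraries. Ccn1 (chromosome 3, 145646976 to 145649981) had 8.46, 2.54 and 0.837 CPM in SSCd, against 174 and 26.8 CPM in SSCi (log2 fold change -4.68, SE 0.82, adjusted p = 0.00734), with a log2 fold change of -2.77 against replicate 2 alone. Ccn2 had 4.56, 1.47 and 2.09 CPM in SSCd, against 448 and 7.91 CPM in SSCi (-6.41, adjusted p = 0.00734), with -1.56 against replicate 2 alone. Yap1 itself, named after its values were seen, had 51.5, 79.3 and 56.0 CPM in SSCd, against 139 and 105 CPM in SSCi (-0.97, adjusted p = 0.0234). The stretch before the start of Ccn1 is shown because it holds CATTCC, the letters bound by the Tead partners of Yap1, at 103 bases before the start (capitals, RefSeq, GRCm38.p6, along the gene).
Ccn1, chr3:145649986-145650115, minus strand: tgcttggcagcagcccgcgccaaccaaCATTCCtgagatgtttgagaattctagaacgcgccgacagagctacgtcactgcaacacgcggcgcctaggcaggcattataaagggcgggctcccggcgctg
CATTCC on either strand stood in 77 of the 433 lower genes with a window (17.8%), in 7 of the 42 higher genes (16.7%) and in 12.3% of the genes tested, and in 14.6% of all RefSeq windows.

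Some retinoic acid genes were lower in the dissected cultures. Of 15 pathway genes, 14 of them tested, 4 were lower and none higher, against 3.51% and 0.351% of all genes tested. Both SSCi libraries lay above all SSCd libraries in 4 and below them in 2, against 11.1% and 10.6% of all genes tested. The list's median log2 fold change was -0.63, with 0.08 against SSCi replicate 1 and -0.39 against replicate 2. Aldh1a1, the dorsal retinal enzyme that makes retinoic acid, had 249, 207 and 54.8 CPM in SSCd, against 1086 and 497 CPM in SSCi (log2 fold change -2.22, SE 0.54, adjusted p = 0.0221). Cyp26b1, which breaks retinoic acid down, had 5.07, 5.76 and 4.95 CPM in SSCd, against 42.6 and 15.4 CPM in SSCi (-2.46, SE 0.47, adjusted p = 0.00734). The receptor Rarb, itself a retinoic acid target, had 31.4, 27.3 and 22.8 CPM in SSCd, against 67.1 and 40.6 CPM in SSCi (-0.99, adjusted p = 0.0247). In these 3 genes both SSCi libraries exceeded every SSCd library. The fourth, Rarg, was at 36.0 CPM in SSCi replicate 1 alone, with 2.71 CPM in replicate 2 and 2.35 to 3.14 CPM in SSCd. Cyp26a1, the other degrading enzyme, had 30.1, 72.5 and 30.6 CPM in SSCd, against 9.19 and 23.6 CPM in SSCi, without passing (adjusted p = 0.399).

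Of 8 dorsal retina genes 2 were lower, Aldh1a1 and Bmp4. The dorsal signal Bmp4 had 1.69, 0.678 and 0.558 CPM in SSCd, against 64.0 and 2.03 CPM in SSCi (log2 fold change -5.08, adjusted p = 0.00734), mostly from replicate 1. The dorsal factor Tbx5 had 12.4, 14.8 and 11.2 CPM in SSCd, against 39.7 and 24.2 CPM in SSCi, with its groups apart and no call (adjusted p = 0.0948). With edgeR 0 of 10 ventral and optic stalk genes passed, with 1 at an unadjusted p under 0.05, and DESeq2 and limma-voom called 0. Vax2, the ventral factor, had 6.32, 9.21 and 15.1 CPM in SSCd, against 0.610 CPM in SSCi replicate 1 and 19.7 CPM in replicate 2, so the SSCi libraries bracketed the cups.

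Ciliary margin and Wnt genes included several with both SSCi libraries higher. Of 14 ciliary margin genes 2 were lower, against 3.51% of the genes tested. In 8 the groups lay apart in that direction, against 11.1%. The median log2 fold change was -1.26, with -1.17 against SSCi replicate 1 and -0.75 against replicate 2. Ccnd2, a cyclin of the margin, had 58.6, 49.4 and 46.0 CPM in SSCd, against 460 and 102 CPM in SSCi (log2 fold change -2.45, SE 0.45, adjusted p = 0.00734). Rhoj, the other call, had 2.65 to 4.56 CPM in SSCd, against 27 and 5.42 CPM in SSCi (-2.19, adjusted p = 0.0108).

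Of 29 Wnt pathway genes, 26 of them tested, 7 were lower and none higher. The list's median log2 fold change was -0.61, with -0.43 against SSCi replicate 1 and -0.11 against replicate 2. Against replicate 2 alone 11 of the 26 had a positive log2 fold change. The receptor Fzd7 had 15.8, 15.5 and 18.8 CPM in SSCd, against 54.0 and 34.1 CPM in SSCi (log2 fold change -1.40, SE 0.29, adjusted p = 0.01). The secreted antagonist Sfrp1 had 35.4, 34.1 and 26.4 CPM in SSCd, against 68.4 and 60 CPM in SSCi (-1.01, adjusted p = 0.0428). Sfrp2, also counted as a progenitor gene, had 25.4, 80.3 and 35.9 CPM in SSCd, against 277 and 99.6 CPM in SSCi (-1.99, adjusted p = 0.0286). The R-spondin receptor Lgr5, outside that list and named after its values were seen, had 6.47, 6.72 and 6.77 CPM in SSCd, against 49.1 and 15.2 CPM in SSCi (-2.27, adjusted p = 0.00734). The antagonist Dkk2 was at 38.2 CPM in SSCi replicate 1 and at 0 in replicate 2, with 0.169 to 0.735 CPM in SSCd.

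Hedgehog coreceptors were lower in the dissected cultures. Of 11 tested pathway genes 3 were lower and none higher. Cdon had 214, 237 and 211 CPM in SSCd, against 505 and 414 CPM in SSCi (log2 fold change -1.06, SE 0.28, adjusted p = 0.0369). Boc had 9.41, 7.68 and 8.44 CPM in SSCd, against 44.2 and 17.2 CPM in SSCi (-1.85, adjusted p = 0.0193), and Gas1 had 33.9, 30.5 and 24.3 CPM in SSCd, against 103 and 38.6 CPM in SSCi (-1.26, adjusted p = 0.0196). All 3 coreceptors, and Fzd7, were higher in each SSCi library than in any of the 22 others. Of 24 FGF and IGF genes 4 were lower, with a median log2 fold change of -0.80 against both SSCi libraries and -0.23 against replicate 2. Fgfr3 had 10.0, 8.59 and 11.2 CPM in SSCd, against 24.3 and 19.5 CPM in SSCi (-1.14, adjusted p = 0.0262), and Igf1, Igfbp3 and Igfbp7 were led by SSCi replicate 1. Of 29 BMP and TGF-beta genes 9 were lower, with a median log2 fold change of -0.87 against both SSCi libraries and -0.25 against replicate 2. Smad9, a BMP effector, had 1.84, 1.30 and 1.19 CPM in SSCd, against 9.89 and 4.29 CPM in SSCi (-2.30, adjusted p = 0.00741).

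**Figure D4:**
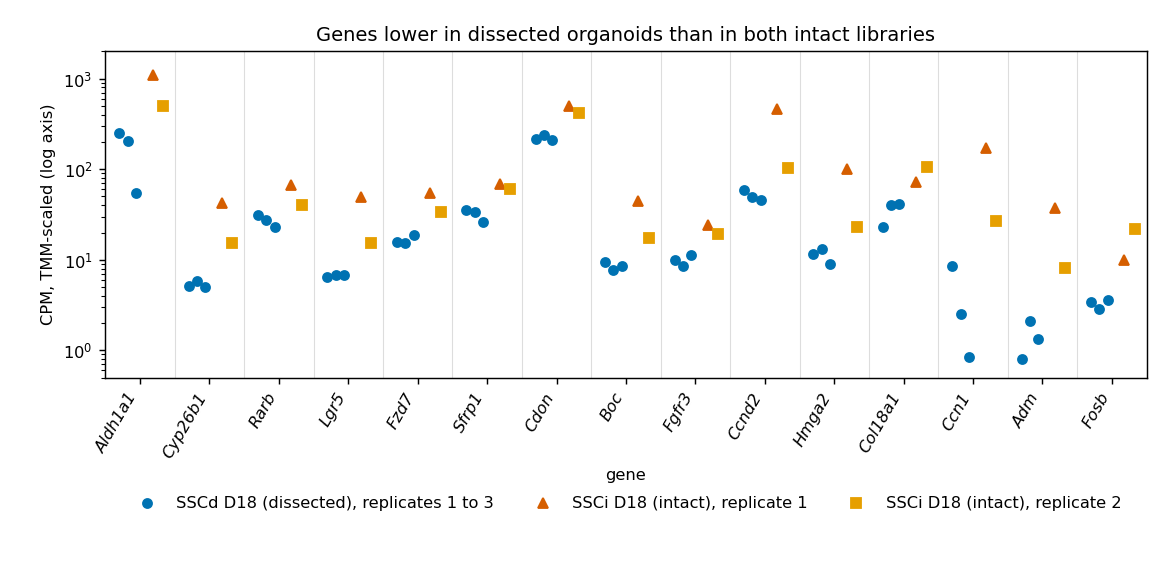
CPM on a log axis for 15 genes called lower in SSCd, chosen after their values were seen because both SSCi libraries lie above all SSCd libraries. Fosb and Col18a1 have the SSCi replicate 2 mark (square) above the replicate 1 mark (triangle), and the other genes the reverse.

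The progenitor list held 2 calls, and the cell cycle list, which holds neither Ccnd2 nor Cdkn1a, held none. Of 15 progenitor genes 2 were lower, Sfrp2 and Hmga2, against 3.51% of the genes tested. In 5 members both SSCi libraries lay above all SSCd libraries, against 11.1% of the genes tested. The list's median log2 fold change was -0.28, with 0.18 against SSCi replicate 1 and -0.53 against replicate 2. Against replicate 2 alone 14 of the 15 had a negative log2 fold change. Hmga2, a chromatin protein of early progenitors, had 11.5, 13 and 9.00 CPM in SSCd, against 102 and 23.3 CPM in SSCi (log2 fold change -2.49, adjusted p = 0.00913). Pax6, Rax, Six6 and Lhx2 overlapped between the groups, as Rax showed with 73.9, 178 and 199 CPM in SSCd, against 78.0 and 218 CPM in SSCi. Among neurogenic genes Atoh7, which commits ganglion cells, had 255, 370 and 253 CPM in SSCd, against 228 and 459 CPM in SSCi. The Notch ligand Jag1 was the single call of that list's 15, at 4.53 to 6.27 CPM in SSCd, against 62.4 and 9.60 CPM in SSCi (-2.73, adjusted p = 0.00734). With edgeR 0 of 30 cell cycle genes passed (median log2 fold change 0.08), 0 had an unadjusted p under 0.05, and DESeq2 and limma-voom called 0. Mki67 had 445, 787 and 507 CPM in SSCd, against 498 and 626 CPM in SSCi.

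Metabolic and stress genes gave few calls. Of 32 hypoxia and glycolysis genes only Adm, a vascular peptide, was called, at 0.809, 2.09 and 1.33 CPM in SSCd, against 37.3 and 8.13 CPM in SSCi (log2 fold change -3.99, adjusted p = 0.0161). The list's median log2 fold change was -0.33, with -0.19 against SSCi replicate 1 and -0.53 against replicate 2. Against replicate 2 alone 29 of the 32 had a negative log2 fold change. In 14 members both SSCi libraries lay above all SSCd libraries, against 11.1% of the genes tested. Hexokinase Hk2 had 36.9, 52.0 and 44.9 CPM in SSCd, against 114 and 113 CPM in SSCi, and the glucose transporter Slc2a3 had 67.4, 100.2 and 66.8 CPM in SSCd, against 183 and 208 CPM in SSCi. Neither passed (adjusted p = 0.369 and 0.234). Pgk1 overlapped. With edgeR 0 of the 24 sterol synthesis and 0 of the 18 serine synthesis and ATF4 genes passed, with median log2 fold changes of 0.13 and -0.25 and with 0 and 2 at an unadjusted p under 0.05. DESeq2 and limma-voom called 0 of either list.

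Of 18 immediate early and heat shock genes 2 were lower. Fosb had 3.46, 2.88 and 3.56 CPM in SSCd, against 9.89 and 21.7 CPM in SSCi (log2 fold change -2.26, SE 0.62, adjusted p = 0.0469), and Ier3 had 4.49, 4.46 and 6.28 CPM in SSCd, against 12.4 and 11.8 CPM in SSCi (-1.25, adjusted p = 0.0361). Fos had 7.13, 6.16 and 6.63 CPM in SSCd, against 22.5 and 55 CPM in SSCi, without passing (adjusted p = 0.0541). In all 3 genes both SSCi libraries lay above every SSCd library, and for Fos and Fosb replicate 2 held the top value. Of 15 p53 and apoptosis genes 6 were lower. Cdkn1a, the p21 cell cycle inhibitor, had 65.0, 48.1 and 70.5 CPM in SSCd, against 248 and 92.9 CPM in SSCi (-1.48, adjusted p = 0.0413), and Fas had 0.0698 to 0.282 CPM in SSCd, against 16.7 and 0.508 CPM in SSCi.

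Markers of other tissues varied within the groups as well as between them. Pigment genes were highest in SSCd replicate 1: tyrosinase (Tyr) had 43.2, 14.7 and 4.81 CPM in SSCd, against 5.86 and 9.15 CPM in SSCi. The pigment gene Mitf had 14.6, 3.95 and 2.02 CPM in SSCd, against 7.74 and 6.83 CPM in SSCi. Of 16 tested pigment epithelium genes only Serpinf1 was called, lower in SSCd. It had 2.72, 3.33 and 2.09 CPM in SSCd, against 261 CPM in SSCi replicate 1 and 6.27 CPM in replicate 2. In that list 10 had a positive and 6 a negative log2 fold change. The list's median was 0.36, with 0.64 against SSCi replicate 1 and 0.23 against replicate 2. Rpe65, the visual cycle isomerase, was at 0 in 4 of the 5 libraries. The choroid plexus gene Ttr had 136, 8.30 and 8.16 CPM in SSCd, against 6.89 and 1.19 CPM in SSCi. Of 9 tested neural crest and periocular genes 3 were lower in SSCd, with a median log2 fold change of -1.69 against both SSCi libraries, -2.46 against replicate 1 and -0.44 against replicate 2. Of 7 endothelial genes 2 were lower, while 5 had a positive log2 fold change. The list's median log2 fold change was 0.55, with 0.26 against SSCi replicate 1 and 0.43 against replicate 2. The endothelial receptor Tek had 0.0565 to 0.279 CPM in SSCd, against 9.14 and 0.960 CPM in SSCi, and the receptor Flt1 had 0.735 to 1.19 CPM in SSCd, against 10.3 and 1.24 CPM in SSCi. Of 12 surface epithelium genes Perp was lower, at 0.558 to 0.882 CPM in SSCd, against 14.2 and 1.02 CPM in SSCi. Of 25 axon guidance genes 4 were lower. Their median log2 fold change was -0.41 against both SSCi libraries, -0.57 against replicate 1 and -0.07 against replicate 2. Against replicate 2 alone 11 of the 25 had a positive log2 fold change. With edgeR 0 of 14 hindbrain and trunk, 8 blood cell and 7 pluripotency genes and the 1 tested endoderm gene passed, of which 2, 3, 1 and 0 had an unadjusted p under 0.05. DESeq2 called 1 pluripotency gene higher and none of the others, and limma-voom called 0. edgeR, DESeq2 and limma-voom called 0 of the 11 forebrain, 10 choroid plexus, 9 lens and 11 skeletal muscle genes tested, of which 3, 0, 1 and 0 had an unadjusted p under 0.05 with edgeR. The 11 forebrain genes had a median log2 fold change of 0.70, with 0.92 against SSCi replicate 1 and 1.14 against replicate 2. Of them 5 had both SSCi libraries below all SSCd libraries, against 10.6% of the genes tested. The part of these tissues, of mitochondrial share and of the mesenchyme sum in the other results was not tested.

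**Figure D5:**
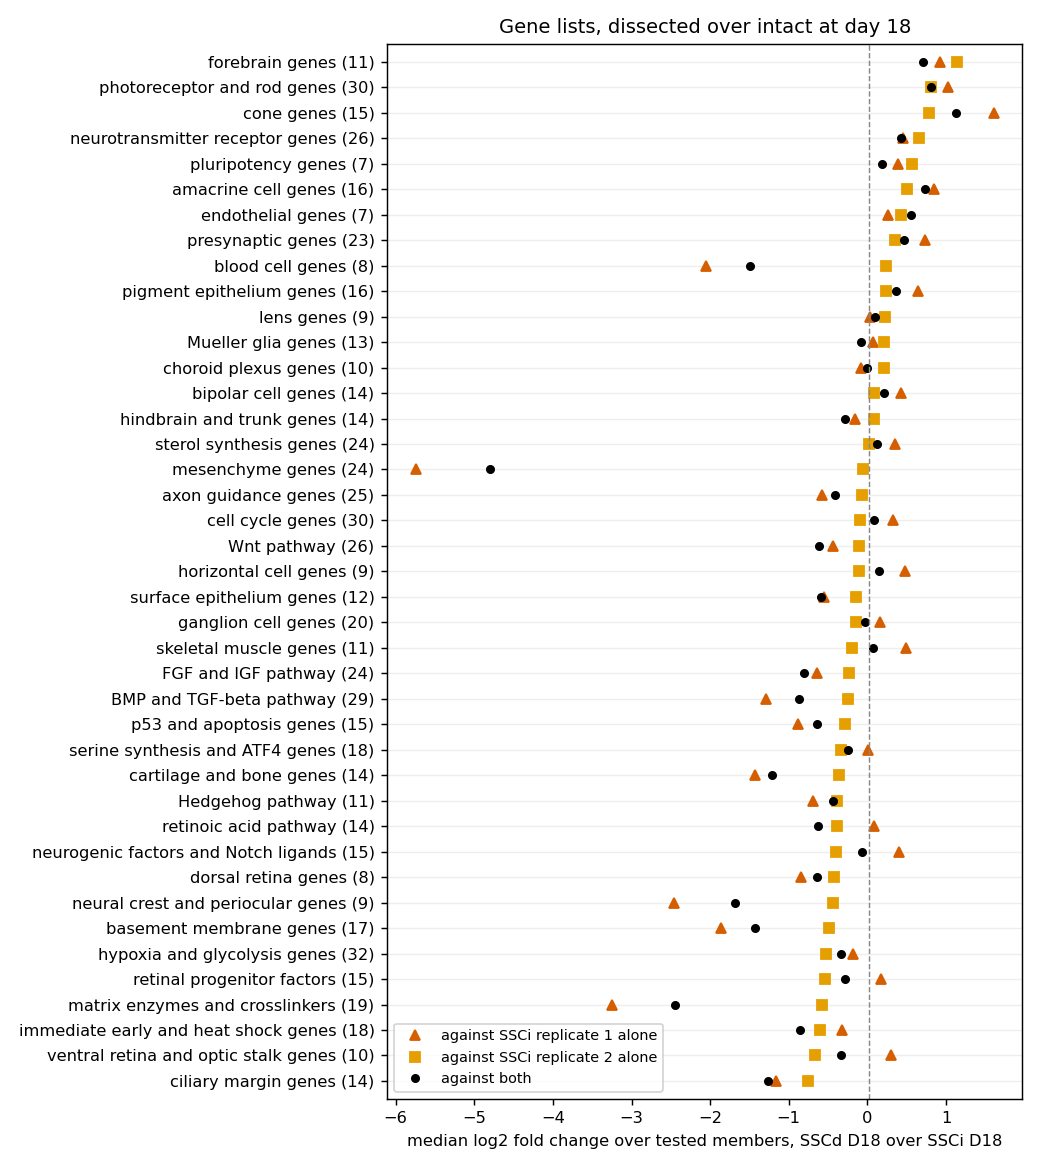
Median log2 fold change of SSCd D18 over SSCi D18 over the tested members of each list with at least 7 of them (number in parentheses), against both SSCi libraries (black), replicate 1 alone (triangle) and replicate 2 alone (square). The dashed line is the median of all genes tested. The mesenchyme list spans -5.74 to -0.06. The cone list spans 0.79 to 1.61, the photoreceptor and rod list 0.80 to 1.03 and the forebrain list 0.70 to 1.14.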

How the data were processed

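The authors deposited estimated counts per gene for 24 libraries of stranded, paired-end polyadenylated RNA. The build GRCm38.p5 and the tools limma 3.32.2, edgeR 3.13.9 and kallisto 0.42.5 are listed with no role, per the submitters' processing notes. How transcripts were summed to genes is not given in the sources used here. Of the deposited values 42.1% were whole numbers, and all were rounded to whole numbers. Near-identical genes may share reads under such estimates. The 5 libraries compared held 13816144 to 21604446 counts. Symbols and gene coordinates came from GENCODE M21 and matched 33331 of 33846 identifiers. Promoter windows came from RefSeq.

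Genes were filtered with edgeR's default rule and scaled by the trimmed mean of M values. edgeR 4.0.16 in R 4.3.3 fitted all 24 libraries with a term for each of the 9 groups, so that the spread was estimated over every group (median biological coefficient of variation 0.256). SSCd was set against SSCi with the quasi-likelihood test, and p-values were adjusted by the Benjamini-Hochberg method over all 16792 genes tested. Called means an adjusted p under 0.05. The script was tested on simulated data. Group overlap was read from the CPM of single libraries. The 3 SSCd and 2 SSCi libraries are repeated experiments per the labels, and p-values measure the spread between such libraries. Between libraries of a group the variance was 110 (SSCd) and 190 (SSCi) times that of counting alone.

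Alternatives were each library left out, the 5 libraries alone, other scalings and filters, a term for the replicate number, DESeq2 1.42.0 and limma-voom (limma 3.58.1). DESeq2 and limma-voom without single libraries were added after seeing the data. Named genes were those with the largest called changes at a mean log2 CPM of at least 3 (8 in each direction), up to 5 called members of each of 42 gene lists by smallest p, up to 2 of the most abundant members of a list with no call, and a panel of 22 genes. Other genes named were chosen after their values were seen. Members and lists were chosen with earlier results of these data known. Figures were drawn with matplotlib. A few genes are not reported here.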

Additional observations from a re-analysis of the deposited data

How the results depend on the processing

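The count of 649 called genes ranged from 0 to 1339 when single libraries were left out. It was 0 for the 5 libraries alone (1283 genes at an unadjusted p under 0.05) and 0 with both libraries numbered 1 left out (460 genes). limma-voom called 29 genes (8 higher, 21 lower) and DESeq2 923 (148 higher, 775 lower). Scaling by RLE size factors gave 653 genes, no scaling 580, no filter 632 and the filter of at least 1 CPM 529. Among the alternatives added after seeing the data, DESeq2 called from 14 to 1606 genes with a library left out, and limma-voom from 1 to 1627. The count of genes called against both SSCi libraries and against each alone was 0 with edgeR under RLE size factors, no filter and the replicate block, and 1 with limma-voom.

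Replicate numbers are not shown to pair the libraries. Deviations of same-numbered libraries from their group means correlated at 0.226 and 0.112 over only 2 pairs. With a replicate block edgeR called 725 genes (116 higher, 609 lower).

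Among the called genes named and the alternatives run, log2 fold changes turned direction only in fits that lacked SSCi replicate 1. With single libraries left out they ranged from -6.93 to 1.41 for Acta2, from -7.74 to 0.15 for Col1a1, from -7.83 to 1.36 for Col3a1, from -6.64 to 5.52 for Dkk2, from -4.75 to 1.11 for Igfbp3, from -4.88 to 0.27 for Igfbp7, from -7.76 to 0.081 for Prrx1, from -3.66 to 0.0078 for Rarg, from -3.62 to 0.062 for Slc12a4, from -11.01 to 0.27 for Thbs1 and from -5.14 to 0.054 for Timp2, the highest value each time without SSCi replicate 1. With both libraries numbered 1 left out they were 0.41 for Acta2, 0.64 for Col3a1, 0.097 for Col5a2, 4.60 for Dkk2, 0.90 for Igfbp3, 0.10 for Rarg, 0.20 for Slc12a4 and 0.0046 for Spp1. Dkk2 had no count in SSCi replicate 2, so its 5.52 and 4.60 do not measure the size of a change. The cause of the changes in direction was not tested.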
